A study of Mus musculus with 4 samples.

Results

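The D cyclins, their partner kinases and the inhibitors that hold cells in G1 were examined in stem-cell-enriched bone marrow of mice labelled GABPα-deficient. The 10 genes were Ccnd1, Ccnd2, Ccnd3, Cdk4, Cdk6, Cdkn1b, Cdkn1c, Cdkn2c, Cdkn2d and Rbl2, and they were picked by name. A probe set (a group of array probes summarised into 1 value) was taken where the platform annotation gave it exactly 1 of these symbols. All 10 genes were found, on 11 of the 35556 probe sets, because Cdkn1b had 2. For Cdkn1b the probe set with the higher mean over all arrays stands for the gene.

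Each of the 4 samples, 2 per group, was hybridised to its own Affymetrix whole-transcript mouse array (Mouse Gene 1.0 ST). The GABPα-deficient arrays came from Mx1Cre-GABPa(FL/-) mice, which carry a floxed allele and a null allele. The control arrays came from Mx1Cre-GABPa(FL/+) mice, which also carry the Cre transgene and a floxed allele, but with a wild-type allele beside it. Mice of both groups were 6 to 8 weeks old, from a C57/BL6 backcross of 4 generations, and all received pIpC, a double-stranded RNA mimic. It induces interferon, and through it the Mx1 promoter that drives Cre, so both groups had an interferon stimulus and Cre activity, and Cre can act in any cell that answers interferon. Flt3(-) LSK cells (marrow cells with Sca-1 and c-Kit but neither mature lineage markers nor surface Flt3, a fraction rich in blood stem cells) were sorted 4 days after the last injection. The labels do not say whether an array held 1 animal or a pool, so a p-value reflects only how far these samples differ among themselves, which may be technical.

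D cyclins are the cyclins that growth factors and cytokines induce. They bind CDK4 or CDK6, and the kinases phosphorylate the retinoblastoma proteins, which frees E2F factors to switch on genes for S phase. INK4 inhibitors (here Cdkn2c and Cdkn2d) bind CDK4 and CDK6 directly, while CIP/KIP inhibitors (Cdkn1b and Cdkn1c) bind cyclin-CDK complexes, and p130, the product of Rbl2, joins E2F4 and the MuvB proteins in the DREAM complex that represses cell cycle genes in resting cells. Blood stem cells are mostly quiescent, and in mice p57, the product of Cdkn1c, and p27, the product of Cdkn1b, take part in keeping them so.

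GABP binds DNA through an ETS domain at sites with a GGAA core, so the promoters of the genes were read for such letters. RefSeq promoter windows of GRCm38.p6, from 250 bases before to 50 after a start site, were at hand for 7 of the 10 genes, in 9 windows, and Ccnd1, Ccnd2 and Cdkn1c had no entry. The letters CCGGAAG, searched on both strands, occurred in 1 of the 7 genes, Ccnd3, and in 9.93% of the 27025 genes with a window. Its shorter core CGGAAG, which lies within the longer motif, occurred in Ccnd3 and Cdk6 and in 18.8% of all genes. Both stretches are shown with the core in capitals. The Ccnd3 stretch lies at chr17:47593300-47593365 on the plus strand, with its core starting 137 bases before the start site. The Cdk6 stretch lies at chr5:3343676-3343741 on the plus strand, with its core on the opposite strand, 187 bases before the start site.
Ccnd3: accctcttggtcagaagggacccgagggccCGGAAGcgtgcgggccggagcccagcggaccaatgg
Cdk6: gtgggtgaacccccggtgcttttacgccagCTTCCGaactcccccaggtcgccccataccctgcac

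The E-box letters CACGTG, which MYC and related factors bind and which read the same on both strands, occurred in 3 of the 7 genes (Cdk4, Cdk6 and Cdkn2c) and in 8.09% of all genes. The Cdk4 window held 4 of them, all within the 180 bases before its start site. Whether MYC acts on any of these genes in these cells was not tested. The 180 bases, at chr10:127063355-127063534 on the plus strand, are shown with the E-boxes in capitals.
Cdk4: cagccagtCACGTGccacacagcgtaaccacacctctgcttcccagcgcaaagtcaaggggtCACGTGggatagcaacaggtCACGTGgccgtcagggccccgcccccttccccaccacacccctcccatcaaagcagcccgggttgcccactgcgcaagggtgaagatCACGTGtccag
The E2F letters TTTGGCGC and TTTCCCGC occurred in 0 of the 7 genes, against 0.585% and 1.24% of all genes on either strand. These are matches of letters in a short window, not tested binding sites.

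The comparison asked how expression of these genes differs between GABPα-deficient and control cells. Values are log2 expression as deposited, and a difference is the mean of the deficient arrays minus that of the control arrays. Cyclin D2, CDK6 and p130 transcripts read lower on both deficient arrays than on either control array, while cyclin D3 and CDK4 transcripts hardly differed. Of the inhibitors among the 10 genes, only Cdkn1c read higher. In limma's fit over all probe sets with Benjamini-Hochberg adjustment, 0 of the 10 genes and 0% of all probe sets passed an adjusted p under 0.05, so no gene below is called and all are given as values. At an unadjusted p under 0.05, 4 of the 10 genes were lower (Ccnd2, Cdk6, Rbl2 and Cdkn2d) and 0 were higher. Without control replicate 1 the counts were 2 and 1. Of all probe sets, 5.25% were lower and 6.64% higher by that rule, 11.9% in either direction. Among the brighter 50% of probe sets, which included all 10 genes, the shares were 8.34% and 7.63%. That division used the mean over all 4 arrays, and Rbl2 entered it through its control values: its level stood above 47.9% of probe sets on the deficient arrays and above 77.4% on the control arrays. That split depended on scaling: 1865 probe sets were lower and 2360 higher as deposited, against 2349 and 1191 after cyclic loess normalization and 2185 and 1537 after subtraction of array medians.

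The groups did not overlap for 8 of the 10 genes, with 7 lower and 1 higher on the deficient arrays. Of all probe sets, 14.0% were lower and 38.9% higher without overlap, 52.9% in all. The median difference over the 10 genes was −0.46, and that over all probe sets 0.15, so the median of the 10 lay 0.60 below that of the table. Cyclic loess moved the median of all probe sets by −0.15, and the differences of single genes are therefore also given relative to it. In bulk RNA of sorted cells, fewer cells of a type and less RNA per cell cannot be told apart.

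**Figure D1:**
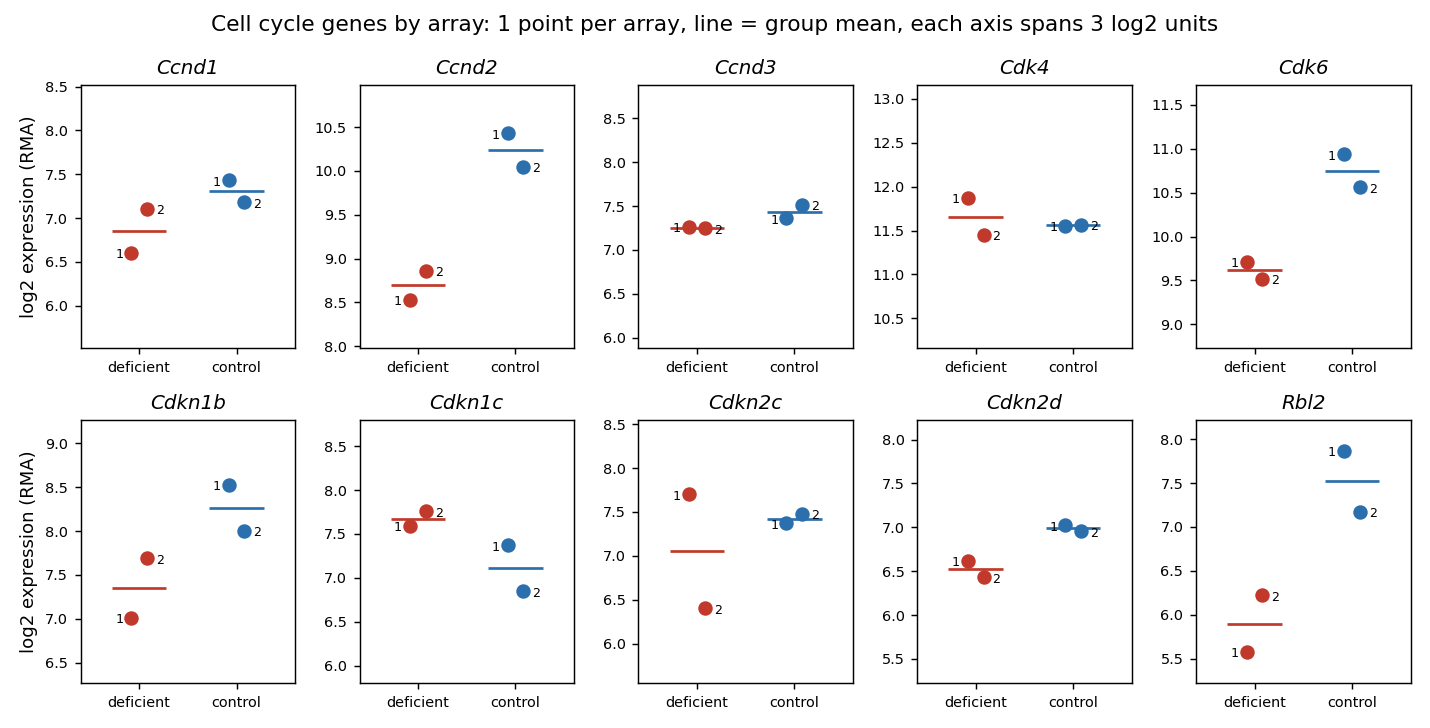
Log2 expression (RMA, vertical axis, spanning 3 log2 units in every panel) of the 10 genes on each array, with deficient arrays in red at the left and control arrays in blue at the right. Numbers mark replicates and lines mark group means. Ccnd2, Cdk6 and Rbl2 show the widest gaps between groups, and Cdk4 and Cdkn2c overlap.

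Ccnd2 encodes cyclin D2, a D cyclin that cytokine signals induce in blood cells. It read 8.53 and 8.86 on the deficient arrays, against 10.43 and 10.05 on the control arrays. Both deficient arrays were more than 1 log2 unit below the lower control. The difference was −1.54 (SE 0.23, 95% interval −2.19 to −0.90, limma adjusted p = 0.280), a 2.91-fold lower level, which is −1.69 against the table's median. Only 2.61% of probe sets had a lower difference. Its size varied little with the array left out, from −1.73 to −1.35. The unadjusted limma p stayed under 0.05 after cyclic loess and after subtraction of array medians. It also did with trend and robust eBayes and with a replicate block, which keep the difference itself.

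Ccnd1, cyclin D1, read 6.60 and 7.10 on the deficient arrays, against 7.43 and 7.18 on the control arrays. The groups did not overlap, but deficient replicate 2 lay close to control replicate 2. The difference was −0.45 (SE 0.24, interval −1.14 to 0.24, limma adjusted p = 0.462). Without deficient replicate 1 it was −0.20, and without deficient replicate 2 −0.70.

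Ccnd3, cyclin D3, which mice need for the expansion of immature T cells, read 7.26 and 7.25 on the deficient arrays, against 7.36 and 7.51 on the control arrays. All 4 values lay within a narrow band, with the deficient pair just below the controls. The difference was −0.18 (SE 0.15, interval −0.60 to 0.23, limma adjusted p = 0.556). The interval does not reach a difference as large as that fitted for Ccnd2, and 22.8% of probe sets had a lower difference than Ccnd3.

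The D cyclins can be set against each other within an array, where a shift of the whole array cancels. The log2 value of Ccnd2 minus that of Ccnd3 was 1.27 and 1.61 on the deficient arrays, against 3.07 and 2.53 on the control arrays. The ratio thus differed by −1.36 between groups, without overlap. Ccnd2 minus Ccnd1 was 1.93 and 1.76 on the deficient arrays, against 2.997 and 2.87 on the control arrays, a difference of −1.09. Ccnd3 minus Ccnd1 overlapped between groups, with a difference of 0.27. With 2 arrays against 2, the smallest p that an exact two-sided permutation test can give is 0.333, which both ratios of Ccnd2 reached. No such ratio can pass a threshold in this design, and none says which cyclin is more abundant.

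Cdk6, a partner kinase of all D cyclins and a kinase known in human stem cells for its part in leaving quiescence, read 9.72 and 9.52 on the deficient arrays, against 10.94 and 10.56 on the control arrays. Every deficient value was below every control value. The difference was −1.13 (SE 0.20, interval −1.71 to −0.55, limma adjusted p = 0.317), a 2.19-fold lower level, which is −1.28 against the table's median. With 1 array left out it ran from −1.32 to −0.94. The unadjusted limma p of Cdk6 stayed under 0.05 after cyclic loess and after subtraction of array medians. It also did with trend and robust eBayes and with a replicate block, which keep the difference itself.

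Cdk4, the other partner kinase, read 11.87 and 11.45 on the deficient arrays, against 11.55 and 11.57 on the control arrays. The deficient values lay on both sides of the controls. The difference was 0.10 (SE 0.20, interval −0.48 to 0.68, limma adjusted p = 0.807), or −0.045 relative to all probe sets, so its sign depended on that reference. It was −0.11 without deficient replicate 1. Cdk6 minus Cdk4 was −2.16 and −1.93 on the deficient arrays, against −0.62 and −1.01 on the control arrays. That ratio differed by −1.23 without overlap (exact two-sided permutation p = 0.333, the smallest this design can give).

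**Figure D2:**
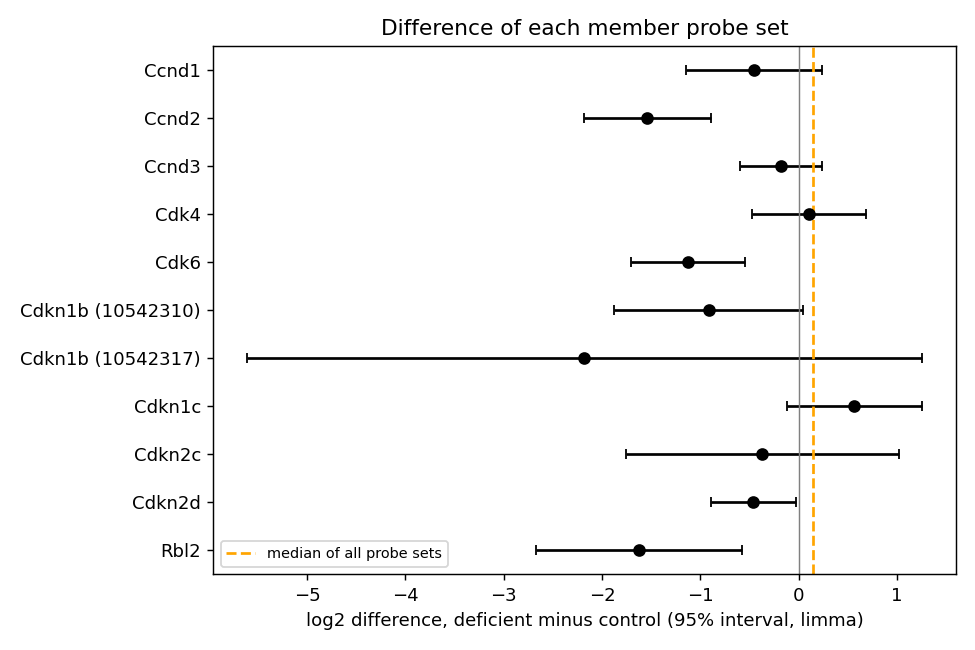
Log2 difference (horizontal axis, deficient minus control) of each of the 11 probe sets, with bars for the 95% interval of limma's fit; the dashed line is the median of all probe sets at 0.15. The intervals of Ccnd2, Cdk6, Cdkn2d and Rbl2 lie below 0, and that of the second Cdkn1b probe set is by far the widest.

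Of the INK4 inhibitors, Cdkn2d (p19 INK4D) read 6.62 and 6.43 on the deficient arrays, against 7.02 and 6.95 on the control arrays. The gap between groups was small but larger than the spread within either group. The difference was −0.46 (SE 0.15, interval −0.90 to −0.032, limma adjusted p = 0.412). Its unadjusted p stayed under 0.05 in 3 of 10 alternatives, and in 0 of the 4 that left out an array.

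Cdkn2c (p18 INK4C), whose loss expands blood stem cells in mice, read 7.70 and 6.40 on the deficient arrays, against 7.37 and 7.48 on the control arrays. Deficient replicate 1 was the highest of the 4 and deficient replicate 2 the lowest. The difference was −0.37 (SE 0.49, interval −1.76 to 1.02, limma adjusted p = 0.697), and it had the opposite sign, 0.28, without deficient replicate 2. Without deficient replicate 1 it was −1.02.

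Of the CIP/KIP inhibitors, Cdkn1b (p27 KIP1) read 7.01 and 7.69 on the deficient arrays, against 8.53 and 8.00 on the control arrays, on probe set 10542310. The groups did not overlap, and deficient replicate 2 came closer to control replicate 2 than to the other deficient array. The difference was −0.92 (SE 0.34, interval −1.88 to 0.047, limma adjusted p = 0.421). It was −0.58 without deficient replicate 1 and −1.26 without deficient replicate 2.

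The other Cdkn1b probe set, 10542317, read 4.27 and 7.54 on the deficient arrays, against 8.34 and 7.83 on the control arrays. It shared the sign of the first, but deficient replicate 1 stood far below the other 3 arrays. The difference was −2.18 (SE 1.21, interval −5.61 to 1.25, limma adjusted p = 0.466). On deficient replicate 2 and both control arrays the 2 probe sets moved alike, so the size of the Cdkn1b difference rests on which probe set and which deficient array is read.

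Cdkn1c (p57 KIP2), the CDK inhibitor most tied to stem cell quiescence in mice, read 7.59 and 7.76 on the deficient arrays, against 7.37 and 6.85 on the control arrays. It was the only one of the 10 genes with both deficient values above both controls. The difference was 0.57 (SE 0.24, interval −0.12 to 1.25, limma adjusted p = 0.430), or 0.42 against the median of all probe sets, and 92.1% of probe sets had a lower difference. Without control replicate 1 it was 0.83, and without control replicate 2 0.30. Within arrays, Cdkn1b minus Cdkn1c was −0.58 and −0.067 on the deficient arrays, against 1.16 on each control array. The ratio differed by −1.48 without overlap (exact two-sided permutation p = 0.333, the smallest this design can give). Of the 8 ratios computed among these genes, 4 separated the groups and 4 overlapped. Besides Ccnd3 minus Ccnd1, the overlapping ones were Cdkn1b minus Cdkn2d (difference −0.45), Cdkn2d minus Cdkn2c (−0.091) and Rbl2 minus Rbl1 (−0.49), with exact two-sided permutation p of 0.667, 1 and 0.667.

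Rbl2 (p130), the retinoblastoma relative of resting cells, read 5.58 and 6.22 on the deficient arrays, against 7.87 and 7.17 on the control arrays. Both deficient values were nearly 1 log2 unit or more below the lower control. The difference was −1.62 (SE 0.37, interval −2.67 to −0.58, limma adjusted p = 0.370), or −1.77 against the table's median. The deficient mean of 5.90 lay at about the array medians, and without detection calls it cannot be told from background, so no fold is given. It ran from −1.97 to −1.28 with 1 array left out. The −1.28 came without control replicate 1. The unadjusted p of the Rbl2 difference stayed under 0.05 after cyclic loess, after subtraction of array medians, with trend and robust eBayes and with a replicate block. That did not hold in every fit that left out 1 array. The fit without the dimmer 50% of probe sets is not counted here, since Rbl2 stayed in it through its control values.

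**Figure D3:**
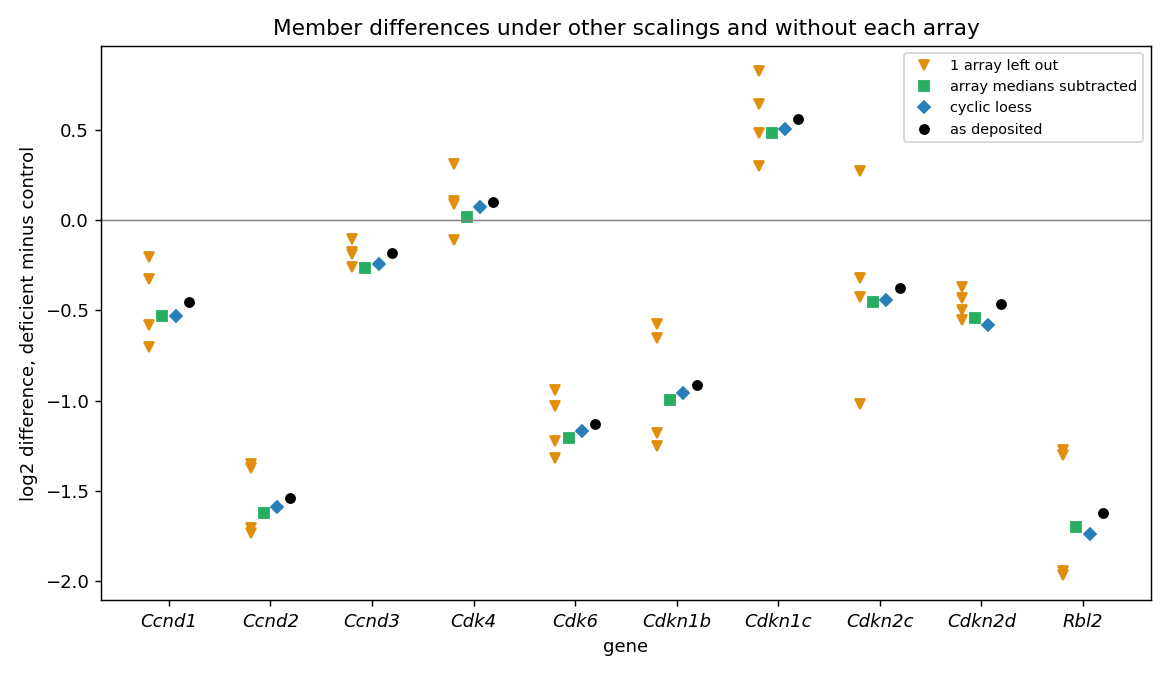
Log2 difference (vertical axis, deficient minus control) of the 10 genes as deposited (black), after cyclic loess (blue), after subtraction of array medians (green) and with each array left out in turn (orange). Only Cdk4 and Cdkn2c have values on both sides of 0, while Ccnd2, Cdk6 and Rbl2 stay below −0.9 throughout.

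Downstream of the D cyclins, the retinoblastoma, E2F and DREAM genes were mixed. Of 16 measured, 4 were lower and 1 higher at an unadjusted p under 0.05, 0 passed over all probe sets, and the median difference was −0.11, or −0.25 relative to all probe sets. Among them, E2f8, a repressor E2F, read 8.43 and 8.37 on the deficient arrays, against 9.47 and 9.39 on the control arrays (difference −1.03, SE 0.14, limma adjusted p = 0.270). E2f3, an activator E2F, differed by −2.01 (SE 0.37), and Rbl1, which encodes the Rbl2 relative p107, by −1.13 (SE 0.37). On the deficient arrays E2f3 read 6.44 and 5.82, and Rbl1 6.05 and 5.95. These values lay near the array medians, and without detection calls they cannot be told from background. E2f4, the E2F that p130 binds in resting cells, read 9.72 and 9.34 on the deficient arrays, against 8.83 and 8.72 on the control arrays. Rbl2 and E2f4 thus read in opposite directions (E2f4 difference 0.76, SE 0.20). Without deficient replicate 1 the list had 2 genes lower and 0 higher at unadjusted p, without control replicate 1 also 2 and 0, and without deficient replicate 2 it had 3 and 3. Without control replicate 2 it had 3 and 0. Without control replicate 1 the Rbl1 difference was −0.65.

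Cyclin E takes over from the D cyclins at the entry to S phase. Ccne1, which encodes cyclin E1, read 9.56 and 8.77 on the deficient arrays, against 7.46 and 7.27 on the control arrays. Both deficient arrays exceeded both controls by more than 1 log2 unit (difference 1.80, SE 0.33, limma adjusted p = 0.317), the opposite side from Ccnd2. Ccna2, cyclin A2 of S and G2 phases, differed by 0.52 (SE 0.16), and Ccnh, cyclin H, by −0.22 (SE 0.18). Cdk7, the CDK-activating kinase, differed by 0.54 (SE 0.23), with the opposite sign, −0.28, when its probe sets were averaged. Over the 9 measured genes of this group 0 were lower and 2 higher at an unadjusted p under 0.05, and the 2 became 1 after cyclic loess and without control replicate 1, control replicate 2 or deficient replicate 2. Without deficient replicate 1 there were 1 lower and 2 higher. The group median was 0.13, and −0.092 after cyclic loess.

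Proliferation markers were mixed, with 11 of 19 measured above 0 and 8 below 0, and 9 below the table's median. Most probe sets of the table also lay above 0, as only 31.5% had a lower difference than Ccng1, at −0.024. Of the 19, 0 were lower and 5 higher at an unadjusted p under 0.05, with a median difference of 0.27, or 0.13 against the table's median. Over all probe sets 0 passed. Plk1, a mitotic kinase, read 10.23 and 10.01 on the deficient arrays, against 9.22 and 9.48 on the control arrays (difference 0.77, SE 0.18, limma adjusted p = 0.382). Birc5, survivin of the chromosomal passenger complex, differed by 0.62 (SE 0.16), Aurkb, its kinase, by 0.58 (SE 0.16), and Ccnb2, a mitotic cyclin, by 0.52 (SE 0.14). Without overlap, 8 of the 19 read higher and 2 lower, against 38.9% and 14.0% of all probe sets. The 2 lower were named after their values were seen: Bub1, a spindle checkpoint kinase, at −1.25 (SE 0.59), and Mcm6, a replicative helicase subunit, at −0.46 (SE 0.20). Bub1 read 4.52 and 5.66 on the deficient arrays, below the array medians, which without detection calls cannot be told from background. The count of 5 was not stable when an array was left out. It fell without control replicate 1, control replicate 2 or deficient replicate 1. It rose without deficient replicate 2, where some of the genes were also lower. After subtraction of array medians there were 1 lower and 3 higher.

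Other CDK inhibitors stayed close to the table's own shift. Cdkn2a, which encodes p16 and p19 ARF, differed by 0.30 (SE 0.18), Cdkn2b (p15) by 0.34 (SE 0.16), and Cdkn3, a phosphatase that acts on CDKs, by 0.30 (SE 0.47). Cdkn2a and Cdkn2b read higher without overlap, as did 38.9% of all probe sets, and Cdkn3 overlapped. Of the 3, 0 were lower and 0 higher at an unadjusted p under 0.05, and Cdkn1a (p21) was not analysed here. Without control replicate 1 there was 1 higher. Without control replicate 2 the Cdkn3 difference was −0.32.

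Genes upstream of the D cyclins and p27 showed little separation. Of 10, 1 was lower (2 without deficient replicate 1) and 0 higher at an unadjusted p under 0.05, with a median difference of −0.23. The 1 was Gsk3b, a kinase that marks D cyclins for breakdown, at 6.03 and 6.57 on the deficient arrays, against 7.48 and 7.51 on the control arrays (difference −1.20, SE 0.24, limma adjusted p = 0.338). Akt2 differed by −0.71 (SE 0.37), and the MYC family genes Myc and Mycn by −0.25 (SE 0.17) and −0.41 (SE 0.31), with overlapping groups for Mycn. Among 11 genes of D cyclin and p27 turnover, 0 were lower and 2 higher at an unadjusted p under 0.05, with a median of −0.12. Without deficient replicate 1 there were 1 lower and 1 higher, without deficient replicate 2 there were 3 and 2, and without control replicate 1 there were 0 and 1. Rnf123, a ubiquitin ligase subunit that acts on p27 in G1, read 8.57 and 8.65 on the deficient arrays, against 7.92 and 7.84 on the control arrays (difference 0.73, SE 0.14, limma adjusted p = 0.328). Cdc34, a ubiquitin-conjugating enzyme, differed by 1.10 (SE 0.35), and by 0.66 without deficient replicate 1. Skp1, a core subunit of SCF ligases, differed by −0.48 (SE 0.21), and Fbxw7, the SCF subunit that targets cyclin E, by −1.28 (SE 0.67).

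Transcriptional and atypical cyclins and CDKs, outside the G1 machinery, leaned lower, with 15 of 24 below 0 and 9 above, and 18 below the table's median. Without overlap, 10 of the 24 read lower and 1 higher, against 14.0% and 38.9% of all probe sets, and 13 overlapped between groups. Of the 24, 6 were lower and 0 higher at an unadjusted p under 0.05, and the median was −0.42, or −0.57 relative to all probe sets, close to the −0.60 of the 10 genes. Ccng2, cyclin G2, an atypical cyclin that FOXO factors induce in arrested cells, read 4.65 and 5.35 on the deficient arrays, against 7.34 and 7.56 on the control arrays (difference −2.45, SE 0.30, limma adjusted p = 0.235). Its deficient values lay below the array medians, and without detection calls they cannot be told from background. Ccnl1, a cyclin of splicing kinases, differed by −1.76 (SE 0.33), Ccnt1, the cyclin of the elongation kinase P-TEFb, by −1.56 (SE 0.27), and Cdk17 by −1.39 (SE 0.28). On the deficient arrays Ccnl1 read 5.91 and 5.53, and Ccnt1 5.86 and 6.44. These values lay near the array medians, so the same limit holds for the size of both differences. Without control replicate 1 the count was 3 lower and 0 higher, and without control replicate 2 or deficient replicate 1 it gained 1 higher.

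**Figure D4:**
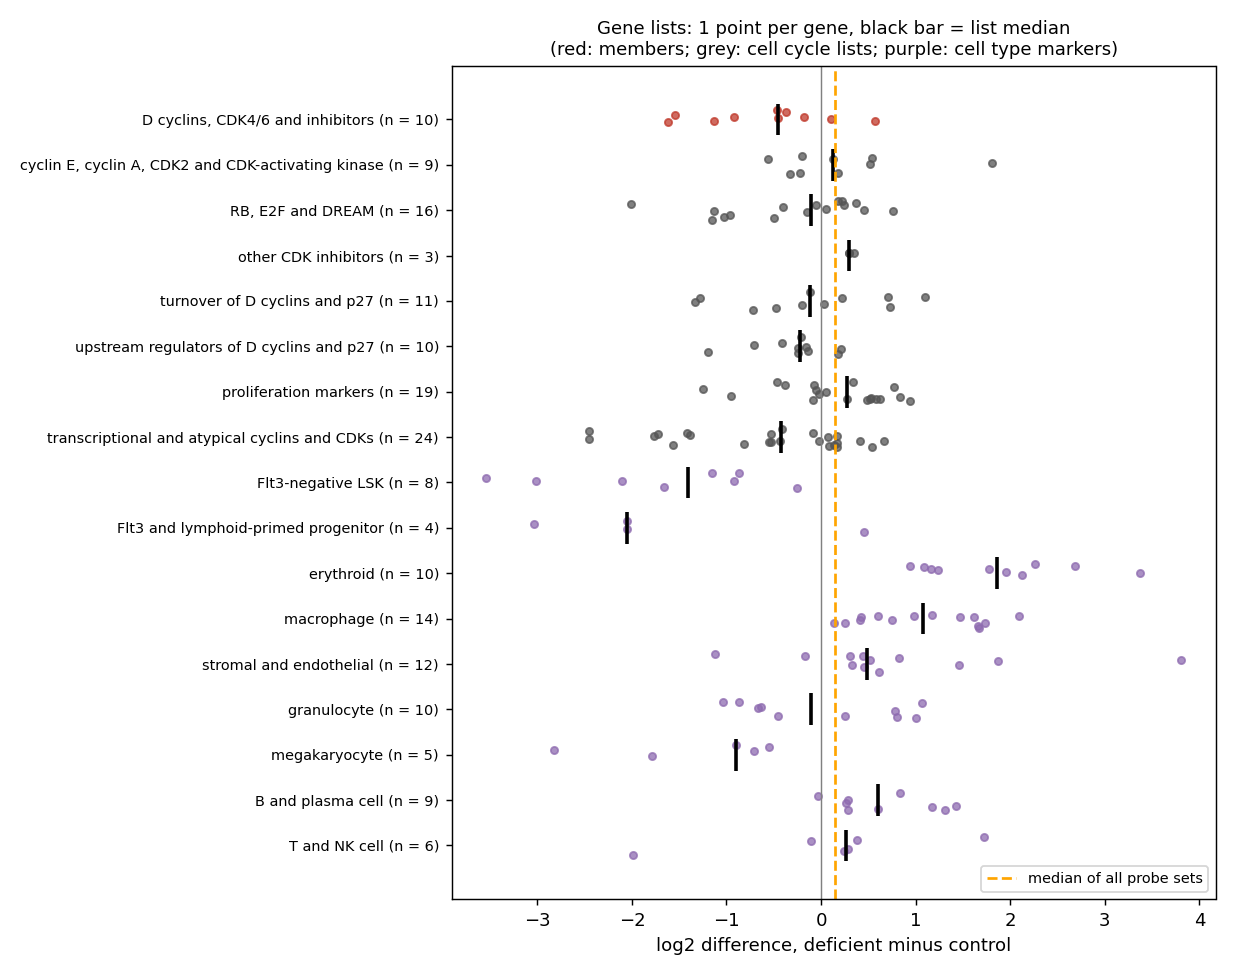
Log2 difference (horizontal axis, deficient minus control) of every measured gene in each list, with 1 point per gene, a black bar at the list median and a dashed line at the median of all probe sets. The 10 genes (red, top row) have a median of −0.46, proliferation markers 0.27, erythroid markers 1.86 and Flt3-negative LSK markers −1.41.

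The genes whose profile over the 4 arrays was nearest to that of Ccnd2 were Ptbp3, an RNA-binding protein of splicing, Ppig, a cyclophilin of the splicing machinery, and Smarca2, an ATPase of SWI/SNF remodellers. Their root mean square distance from Ccnd2, on log2 values centred on each gene's mean, was 0.036, 0.059 and 0.075. Ptbp3 read 7.63 and 7.98 on the deficient arrays, against 9.51 and 9.22 on the control arrays. Of 19758 genes compared, 11 lay within 0.1 of Ccnd2 by this measure, which rests on 4 values a gene.

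The composition of the sorted RNA differed along with these values. Of the Flt3-negative LSK markers, 8 of 10 were measured and all 8 read lower on the deficient arrays, with 6 at an unadjusted p under 0.05. Their summed linear level was 979 and 1271 on the deficient arrays, against 6083 and 5709 on the control arrays. Kit itself, part of the gate, read 7.70 and 8.50 on the deficient arrays, against 10.21 on each control array, and Cd34 and Meis1 differed by −3.54 (SE 0.22) and −3.01 (SE 0.39). Of the erythroid markers, 10 of 13 were measured and all 10 read higher, 7 at an unadjusted p under 0.05, with a summed level of 4249 and 5836 on the deficient arrays, against 1256 and 1134 on the control arrays. Ank1 and Klf1 differed by 2.13 (SE 0.15) and 1.77 (SE 0.14). All 14 macrophage markers read higher, 6 at an unadjusted p under 0.05 (11 without deficient replicate 2), and their sum was 4253 and 2340 on the deficient arrays, against 1193 and 1338 on the control arrays.

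For stromal and endothelial markers, 10 of 12 read higher, and the sum was 2639 and 1926 on the deficient arrays, against 885 and 825 on the control arrays. Sparc, the brightest of them on the deficient arrays at 10.38 and 9.98, weighed most in that sum there. The 5 megakaryocyte markers measured of 8 all read lower, with a sum of 1261 and 601 on the deficient arrays, against 3336 and 3814 on the control arrays. Of 4 lymphoid-primed progenitor markers measured of 5, 3 read lower, with sums of 289 and 376 on the deficient arrays, against 1449 and 1647 on the control arrays. Flt3 among them read 5.68 and 5.95 on the deficient arrays, against 8.43 and 9.26 on the control arrays. Granulocyte markers had 5 of 10 higher and overlapping sums of 12661 and 9440 on the deficient arrays, against 13354 and 11581 on the control arrays. B and plasma cell markers had 8 of 9 higher, with sums of 2202 and 3738 on the deficient arrays, against 1656 and 1450 on the control arrays. T and NK cell markers had 4 of 6 higher, with sums of 992 and 513 on the deficient arrays, against 1678 and 1494 on the control arrays. These counts of higher genes stand against a table in which most probe sets lay above 0. Only 36.4% of probe sets had a lower difference than Cks1b, at 0.029. A majority above 0 is thus no result about a list by itself. Nkg7, the brightest of the 6 on every array, weighed most in these sums. It read 9.45 and 7.44 on the deficient arrays, against 10.53 and 10.33 on the control arrays. Single genes with the smallest unadjusted p in each of these lists spanned both directions. The macrophage genes Spic and Vcam1 differed by 1.47 (SE 0.21) and 2.10 (SE 0.32), and the stromal and endothelial genes Sparc and Kdr by 3.80 (SE 0.24) and 0.82 (SE 0.16). Tek, next in that list and named after its values were seen, went the other way at −1.12 (SE 0.22). The megakaryocyte genes Itga2b and Vwf differed by −1.79 (SE 0.20) and −0.90 (SE 0.15), the lymphoid-primed gene Cd27 by −2.05 (SE 0.25), and the granulocyte genes Csf3r and Mpo by −1.04 (SE 0.22) and −0.86 (SE 0.20). Sdc1 and Cd79a of the plasma and B cell list differed by 1.43 (SE 0.15) and 0.84 (SE 0.16), and Gzmb and Nkg7 of the T and NK list by 1.73 (SE 0.20) and −1.98 (SE 0.74). These are sums of background-corrected array signals, which do not reach 0 and carry no detection calls here, so no marker can be called absent. The part of this difference in cell markers in the values of the 10 cell cycle genes was not tested.

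Gabpa, the targeted gene, read 6.43 and 7.85 on the deficient arrays, against 8.43 and 7.28 on the control arrays, so its probe set did not separate the groups (difference −0.71, SE 0.68, limma adjusted p = 0.605). No source at hand places that probe set relative to the deleted exons. It may therefore be blind to the deletion, and the groups are named by their labels. Its partner genes Gabpb1 and Gabpb2 differed by −0.67 (SE 0.39) and −0.28 (SE 0.31), and Gabpb2 by 0.098 without control replicate 1. Across probe sets, the correlation was 0.944 between the deficient arrays and 0.960 between the control arrays, and 0.923 to 0.942 between groups. Array medians lay between 5.87 and 6.01.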

How the data were processed

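RNA of 4 sorted samples (800 pg to 50 ng, amplified with a whole-transcript kit, per the labels) was hybridised 1 array each. The authors deposited log2 values, 1 for each probe set. Partek and RMA are listed, with no version, per the submitters' processing notes. RMA usually combines background correction, quantile normalization and a summary over probes. Values ran from 1.98 to 13.67, so no further log or scaling was applied. No genome build is stated, so array positions are not printed. Arrays carry no read depth, and having 2 per group limits precision.

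Names of probe sets come from the platform annotation, with symbols updated by Entrez number from RefSeq (GRCm38.p6). Of 35556 probe sets, 21789 had 1 symbol (21698 matched by number), 1621 several and 12146 none. The test was limma 3.58.1 (R 4.3.3; lmFit, eBayes, genotype only) over all probe sets with Benjamini-Hochberg adjustment at 0.05. It was tested on simulated data. A gene's probe set with the highest mean stood for it. Members and lists (7 of cell cycle genes, 9 of cell markers) were chosen with earlier results of these data known. Named were all members, Gabpa, its partners, Kit and Flt3, up to 4 genes per cell cycle list and 2 per marker list with the smallest unadjusted p, and the 3 profiles nearest to Ccnd2. Alternatives were array medians subtracted, cyclic loess, the dimmer 50% of probe sets left out, eBayes with trend and robust, a replicate block, a gene's probe sets averaged, and each array left out. All 4 value columns were mapped to samples. Replicate numbers are not stated to pair samples.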

Additional observations from a re-analysis of the deposited data

How the results depend on the processing

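No setting gave a called probe set: the number at an adjusted p under 0.05 was 0 in every fit over the whole table and for the 10 cell cycle genes. The number of probe sets higher at an unadjusted p under 0.05 was 2360 as deposited, 1537 with array medians subtracted, 1191 after cyclic loess, 964 without the dimmer 50% of probe sets, and 714 to 2198 with 1 array left out. The lower count ranged from 1590 to 2295 with 1 array left out. The median difference of the 10 genes was −0.46 as deposited, −0.54 with array medians subtracted, −0.56 after cyclic loess, and −0.57 to −0.43 with 1 array left out. With 1 array left out, 2 to 4 of the 10 were lower and 0 to 1 higher at an unadjusted p under 0.05. The 2 came without control replicate 1, where Cdkn1c was the 1 higher. The fit with a replicate block gave 1341 probe sets higher and 1666 lower, and 3 of the 10 genes lower. The deviations of the same-numbered arrays had a correlation of −0.088, and no label says that the numbers pair the samples, so whether they do is unknown.

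Signs turned as follows, and the cause was not tested. Without deficient replicate 1, Cdk4 differed by −0.11 and Gabpa by 0.0021. Without deficient replicate 2, Cdkn2c differed by 0.28, the turnover list median was 0.13 and the granulocyte marker median 0.26. Without control replicate 1, Gabpb2 differed by 0.098, the turnover median was 0.019 and the granulocyte median 0.072. Without control replicate 2, Cdkn3 differed by −0.32. The median of the cyclin E, cyclin A and CDK2 list was −0.092 after cyclic loess, and −0.20 with a gene's probe sets averaged, where Cdk7 differed by −0.28. The other 8 of the 10 cell cycle genes kept their sign in 10 of 10 alternatives, but most of these could not have turned it. The groups of these 8 genes did not overlap, so leaving out an array could not reverse them. The dimmer filter, the eBayes options and the replicate block leave a difference as it is. Only the other scalings, and for Cdkn1b the averaging of its probe sets, could have changed a sign. Over the fits that left out 1 array, values ranged from −0.11 to 0.31 for Cdk4, −1.02 to 0.28 for Cdkn2c, −0.32 to 0.92 for Cdkn3, −1.42 to 0.0021 for Gabpa and −0.65 to 0.098 for Gabpb2. They ranged from −0.098 to 0.13 for the turnover median and −0.70 to 0.26 for the granulocyte median.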

Other observations

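Cell cycle genes were often far apart between the 2 deficient arrays. Of 102 measured genes in the cell cycle lists, 21 (20.6%) were more than 1 log2 unit apart on the deficient arrays and 7 (6.86%) on the control arrays. Among all probe sets the shares were 9.5% and 7.33%. The genes with the widest gaps, chosen after their values were seen, were Tfdp2, an E2F partner, Cul1, the SCF scaffold, and Top2a, the topoisomerase of dividing cells. Tfdp2 read 5.18 and 8.21 on the deficient arrays, against 8.75 and 6.95 on the control arrays. Cul1 read 5.43 and 7.89 on the deficient arrays, against 8.35 and 7.63 on the control arrays. Top2a read 7.47 and 9.69 on the deficient arrays, against 10.01 and 9.06 on the control arrays. In these 3 genes deficient replicate 1 was the lowest of the 4 arrays. In the next 3 by gap, Cdk5, Cdk19 and Fbxo4, deficient replicate 2 was the lowest, with gaps of 2.12, 1.93 and 1.69. Of the 21 genes, deficient replicate 1 was the lower in 12. Control replicate 1 was the lower in 0 of the 7 control gaps, and in 926 of 2605 such gaps over all probe sets.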
